A study of Rattus norvegicus with 16 samples.

Results

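Cell cycle genes were followed in microglia, which are the macrophages that reside in brain tissue, as a list of 44 genes for proliferation markers, cyclins, replication proteins and proteins of mitosis. Members were taken by gene symbol from the deposited count table. Of the 44 symbols 43 were found among the 21842 symbols of that table, and E2f1 was not matched and is not analysed here. A filter on low counts left 42 members among 13608 genes tested, and Foxm1, a transcription factor of late cell cycle genes, did not pass it. Bulk RNA was sequenced from brain cells of male Wistar (Hsd/Cpb:WU) rats, which were dissociated mechanically in the cold and sorted as DAPI-negative cells, CD11b high and CD45 intermediate. The rats were exposed to 14 Gy of X-rays or sham-exposed, and were injected intraperitoneally 6 weeks later with the vehicle, phosphate-buffered saline (PBS), or with lipopolysaccharide (LPS), a molecule of bacterial outer membranes that is used to provoke inflammation. The 4 groups are called sham PBS, sham LPS, irradiated PBS and irradiated LPS, with 4 libraries each and 16 in all. The sources used here do not give age or pooling of animals. Nothing ties a library to an animal, so the p-values measure a spread between samples that may be technical.

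A cell enters the cycle when D-type cyclins and their kinases lift the block that pocket proteins place on E2F factors. Licensing proteins then load the MCM helicase onto replication origins, the DNA is copied in S phase, and cyclin B with Cdk1 drives entry into mitosis, where kinetochore, spindle and checkpoint proteins divide the chromosomes. Adult microglia are long-lived cells that divide slowly in the healthy brain and can renew themselves locally after loss or injury, and ionising radiation is known to halt dividing cells through p53 and its target p21.

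Promoters are shown for the members with the smallest p-values for irradiation with PBS, and Ccna2 was picked by the same rule. The genes shown moved in opposite directions, although all of them act in mitosis. The mitotic checkpoint kinase Ttk and the centrosome kinase Aurka were lower after irradiation, and cyclin B2 (Ccnb2) was higher. Sequences come from the RefSeq promoter table of build GRCr8, which held 33 of the 43 members and had no entry for Ccna2, and the deposited counts refer to another build, mRatBN7.2. Each runs 5′ to 3′ on the strand of the gene, from 250 bases before the annotated start to 50 bases after it. Capitals mark matches to 3 motifs on either strand, the cell cycle homology region (CHR, TTTGAA or TTTAAA), the CCAAT box (CCAAT) and the E2F site (TTTCGCGC, TTTGGCGC, TTTCCCGC or TTTGCCGC). TTTAAA reads the same on both strands and was counted once. No motif contains another.
Ttk, chr8:93634389-93634688, plus strand: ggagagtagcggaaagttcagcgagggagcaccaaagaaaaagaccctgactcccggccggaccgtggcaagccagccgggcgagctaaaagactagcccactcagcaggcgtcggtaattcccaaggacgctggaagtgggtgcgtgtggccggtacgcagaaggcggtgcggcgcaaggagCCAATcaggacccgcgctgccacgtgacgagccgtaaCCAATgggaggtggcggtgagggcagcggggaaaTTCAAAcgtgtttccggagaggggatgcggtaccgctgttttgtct
Ccnb2, chr8:79981609-79981908, minus strand: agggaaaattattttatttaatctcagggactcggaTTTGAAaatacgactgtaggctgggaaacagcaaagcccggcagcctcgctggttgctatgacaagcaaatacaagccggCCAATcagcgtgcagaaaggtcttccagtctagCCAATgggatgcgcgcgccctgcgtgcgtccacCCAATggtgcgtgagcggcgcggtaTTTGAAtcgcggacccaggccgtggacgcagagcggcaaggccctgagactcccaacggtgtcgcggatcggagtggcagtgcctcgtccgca
Aurka, chr3:181560720-181561019, minus strand: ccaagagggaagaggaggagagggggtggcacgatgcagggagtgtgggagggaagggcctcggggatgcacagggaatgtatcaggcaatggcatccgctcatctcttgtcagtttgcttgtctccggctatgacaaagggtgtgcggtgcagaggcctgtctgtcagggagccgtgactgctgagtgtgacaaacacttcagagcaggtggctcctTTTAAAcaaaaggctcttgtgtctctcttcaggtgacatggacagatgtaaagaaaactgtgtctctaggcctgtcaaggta

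The Ccnb2 window held 3 CCAAT boxes, which lie 134, 101 and 68 bases before the start, and CHR letters 43 and 214 bases before it. The Ttk window held CCAAT boxes 67 and 30 bases before the start, and CHR letters in the reverse direction beginning 4 bases after it. Only TTTAAA, 32 bases before the start, was found in the Aurka window. An ATG stands just after the annotated Aurka start, with no stop codon in its frame to the end of the window. Annotated starts were not checked against transcripts, so this window may not be the promoter in use. CHR letters stood in 22 of 33 member promoters (66.7%), against 28.3% of all 33469 promoters of the table. CCAAT boxes stood in 24 of 33 (72.7%), against 37.5% of all promoters, and E2F letters in 8 of 33 (24.2%), against 2.14%. CHR letters together with a CCAAT box occurred in 17 of 33 member promoters (51.5%) and in 11.3% of all promoters. A match describes letters in a window and shows no binding.

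After irradiation more members were called higher than lower, and only the shares higher were above those of all genes. With PBS, 18 of the 42 tested members (42.9%) were higher in irradiated than in sham rats and 3 (7.14%) were lower, at an edgeR adjusted p under 0.05. Among all genes tested 11.5% were higher and 9.91% lower in this comparison. With LPS in both groups, 18 members were higher (42.9%) and 4 lower (9.52%), where 15.1% of all genes were higher and 12.6% lower. The median log2 fold change of the tested members was 0.70 with PBS and 0.58 with LPS, and that of all genes was -0.00 and 0.01. Without Cdc6, which passed the filter through the irradiated libraries, 17 of 41 members were higher in each comparison. These comparisons share no library. Of the 18 members higher with PBS, 11 were also higher with LPS (61.1% of each list), where 1192 genes of all tested were higher in both (76.1% of those higher with PBS and 58% of those higher with LPS). The 11 were Top2a, Ccnb2, Mcm4, Cdc6, Rrm2, Aurkb, Ube2c, Kif11, Kif23, Nusap1 and Prc1. Of these, Cdc6 is on both lists as a description only, because it was tested through the irradiated libraries. Ttk, Aurka and Rrm1 were lower in both. The irradiated libraries numbered 1 had the highest summed neuron markers of their groups, 65.9 CPM with PBS and 98.0 CPM with LPS. Without both of them, 17 members were higher and 3 lower with PBS, and 15 were higher and 3 lower with LPS. Leaving out single libraries gave between 14 and 20 higher members with PBS and between 13 and 19 with LPS.

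**Figure D1:**
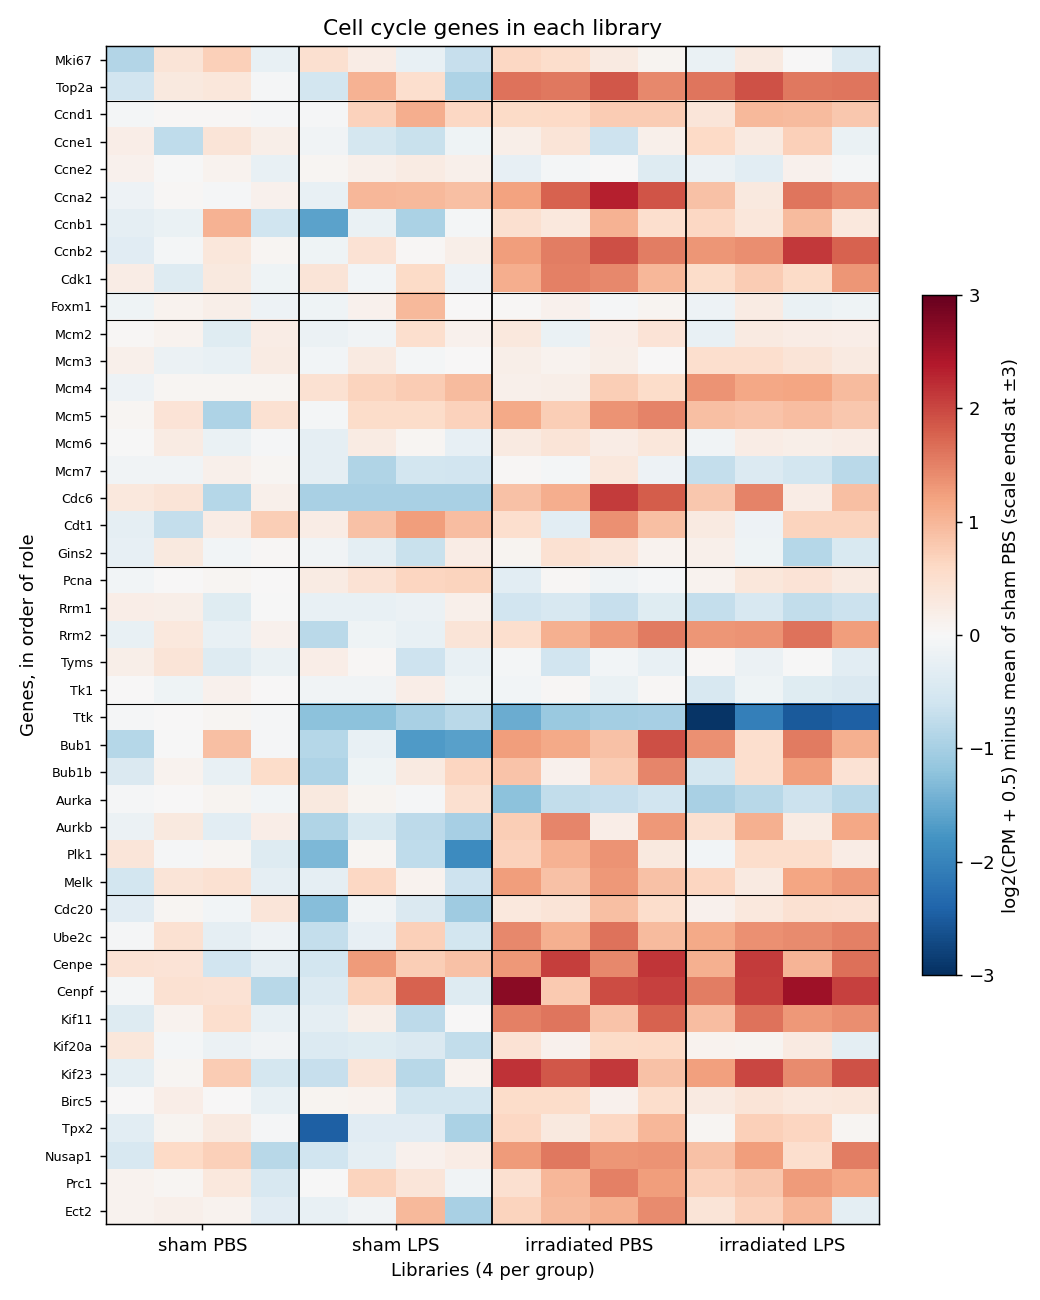
Each row is a member and each column a library, 4 per group, and colour gives log2(CPM + 0.5) minus the mean of the sham PBS libraries, on a scale that ends at 3 in either direction. Most mitotic genes, such as Top2a, Ccnb2 and Kif23, are red in all 8 irradiated libraries, and Ttk and Aurka are blue in them, with Ttk also blue in sham LPS.

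Irradiated libraries also differed in markers of other cells, and the part of these cells in the results was not tested. All 8 microglial markers were found in the table, with a summed level of 39629 to 42981 CPM (CPM being the count relative to the TMM-scaled library total) in sham PBS and 19702 to 24416 CPM in irradiated PBS. In irradiated against sham rats given PBS, where 11.5% of all genes were higher and 9.91% lower, 6 of 8 microglial markers were lower. All 9 T and NK cell markers found in the table were higher, and their summed level was 5.13 to 12.3 CPM in sham PBS, 11.0 to 87.4 CPM in sham LPS, 38.5 to 81.9 CPM in irradiated PBS and 191 to 419 CPM in irradiated LPS. The summed level of the kinetochore, spindle and cytokinesis members was 65.1 to 78.7 CPM in irradiated PBS and 49.8 to 65.3 CPM in irradiated LPS. Of 8 markers each, 7 of border-associated macrophages and 6 of monocytes were higher in irradiated PBS. The monocyte sum was 98.3 to 169.9 CPM in sham PBS, 255 to 322 CPM in sham LPS, 238 to 329 CPM in irradiated PBS and 407 to 744 CPM in irradiated LPS. The macrophage sum was 351 to 399, 460.1 to 986, 1109 to 1391 and 2962 to 4127 CPM in the same order. Markers of oligodendrocyte precursors and neural progenitors, which divide in the adult brain, summed to 55.4 to 69.2 CPM in sham PBS and 38.9 to 47.9 CPM in irradiated PBS, and none of the 3 that could be tested was called in that comparison. Of the neutrophil markers, 1 of 6 tested was higher and 1 lower with PBS, and 5 were higher with LPS (83.3%, against 15.1% of all genes). Their sum stood apart in irradiated LPS library 1, at 1959 CPM against 350.1 to 516 CPM in the other libraries of that group. Mpo, a gene of their precursors, had 0 counts in all libraries. Library totals ranged from 14309458 to 62745496 counts. In bulk RNA, fewer cells of a type and less RNA per cell cannot be told apart.

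Among the proliferation markers, Top2a responded and Mki67 did not pass the test in any comparison. Top2a encodes topoisomerase II alpha, which untangles DNA before chromosome segregation. Its level was 3.22, 6.33, 6.53 and 4.95 CPM in sham PBS libraries 1 to 4 and 16.7, 16.2, 19.7 and 14.7 CPM in irradiated PBS. With LPS it was 3.34, 11.1, 7.45 and 2.42 CPM in sham and 16.5, 20.6, 16.3 and 16.5 CPM in irradiated rats. Every irradiated library stood above every sham library, and Top2a rose by 1.67 ± 0.35 on the log2 scale with PBS (3.19-fold, edgeR adjusted p = 0.00191) and by 1.52 ± 0.34 with LPS (adjusted p = 0.00274). Mki67 encodes the Ki-67 protein that coats mitotic chromosomes. It stood at 6.87, 17.3, 21.9 and 11.1 CPM in sham PBS and 20.4, 19.2, 15.8 and 14.0 CPM in irradiated PBS. In sham LPS it stood at 18.5, 15.2, 11.1 and 7.88 CPM and in irradiated LPS at 11.4, 15.9, 13.2 and 9.69 CPM. The 4 groups overlapped, and the irradiated-against-sham difference of Mki67 was 0.27 ± 0.30 with PBS (edgeR adjusted p = 0.578) and -0.07 ± 0.30 with LPS (adjusted p = 0.904).

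**Figure D2:**
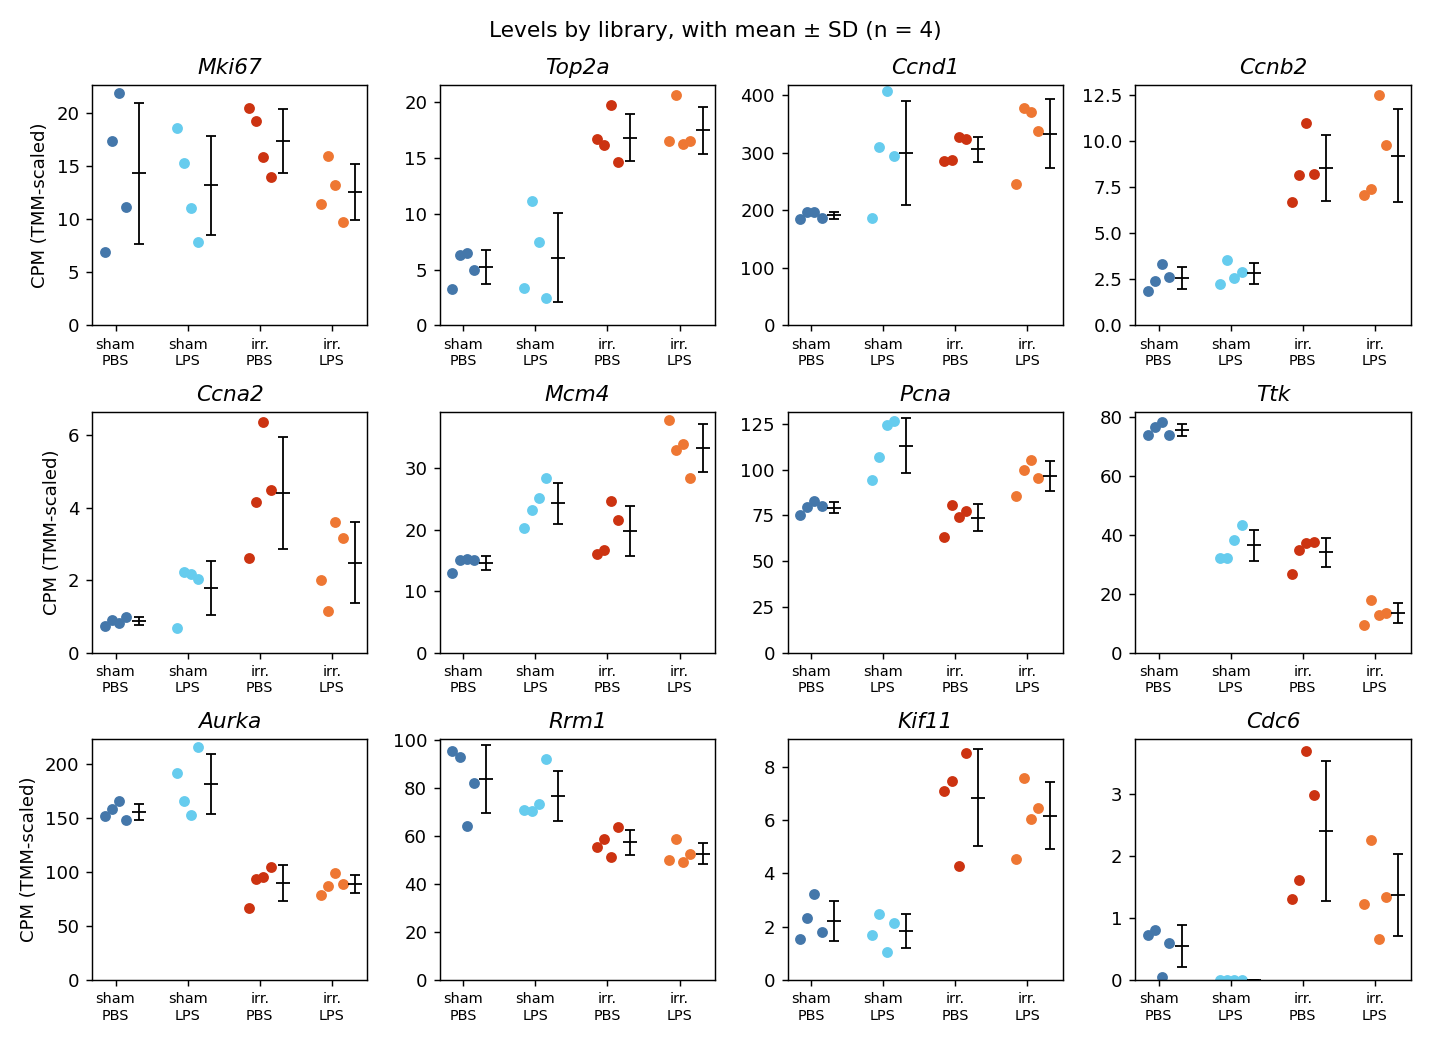
Points are single libraries of 12 members in CPM on linear axes from 0, by group, and black marks give the mean ± SD of 4 libraries. Top2a, Ccnb2 and Kif11 are higher in all irradiated than in all sham libraries, Ttk and Aurka are lower in irradiated PBS than in sham PBS, Mki67 overlaps between groups, and Cdc6 is at 0 in sham LPS.

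Of the 7 members that are cyclins or Cdk1, 4 were higher and none lower after irradiation with PBS, and 2 were higher with LPS. The shares higher were 57.1% and 28.6%, against 11.5% and 15.1% of all genes. Cyclin B2 and cyclin B1 activate Cdk1 for mitosis. Ccnb2 measured 1.89, 2.39, 3.31 and 2.62 CPM in sham PBS and 6.72, 8.16, 11.0 and 8.24 CPM in irradiated PBS. With LPS, Ccnb2 measured 2.25, 3.54, 2.58 and 2.92 CPM in sham and 7.07, 7.41, 12.5 and 9.80 CPM in irradiated rats. Sham and irradiated libraries did not overlap, and Ccnb2 rose by 1.74 ± 0.26 with PBS (3.33-fold, edgeR adjusted p = 8.88e-05) and by 1.70 ± 0.26 with LPS (3.26-fold, adjusted p = 6.78e-05). Ccnb1 was 0.49 ± 0.37 with PBS (adjusted p = 0.398) and rose by 1.25 ± 0.38 with LPS (adjusted p = 0.0204). The latter call was lost without sham LPS library 1 or 3 or irradiated LPS library 3 (adjusted p up to 0.0597).

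Ccna2, the cyclin of S phase and early mitosis, was low in sham PBS at 0.730, 0.897, 0.828 and 0.990 CPM and stood at 2.61, 4.16, 6.35 and 4.48 CPM in irradiated PBS. It was 0.668, 2.21, 2.18 and 2.04 CPM in sham LPS, where library 1 stood apart, and 2.00, 1.15, 3.61 and 3.17 CPM in irradiated LPS. With PBS the groups did not overlap and Ccna2 rose by 2.35 ± 0.45 (5.09-fold, edgeR adjusted p = 0.000877), whereas with LPS they overlapped and the difference was 0.48 ± 0.42 (adjusted p = 0.45). Without sham LPS library 1, Ccna2 was called higher with LPS than with PBS in sham rats (1.31, adjusted p = 0.0259). Cdk1, the kinase that drives mitosis, was at 2.25, 1.30, 2.39 and 1.63 CPM in sham PBS and 4.48, 6.16, 5.87 and 4.19 CPM in irradiated PBS. Cdk1 was at 2.55, 1.71, 2.98 and 1.60 CPM in sham LPS and 2.92, 3.49, 3.02 and 5.42 CPM in irradiated LPS. Irradiated PBS libraries were all above sham PBS libraries, and Cdk1 rose by 1.45 ± 0.32 with PBS (edgeR adjusted p = 0.00304). With LPS its groups overlapped and the difference was 0.75 ± 0.32 (adjusted p = 0.0884).

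Ccnd1, which encodes the G1 cyclin D1, was measured at 185, 197, 197 and 186 CPM in sham PBS and 286, 288, 327 and 324 CPM in irradiated PBS. It was measured at 187, 311, 407 and 295 CPM in sham LPS and 247, 377, 371 and 338 CPM in irradiated LPS. The sham PBS libraries lay within a narrow range below all irradiated PBS libraries, and Ccnd1 rose by 0.68 ± 0.17 with irradiation (1.60-fold, edgeR adjusted p = 0.00841). In LPS-treated rats the difference with irradiation was 0.15 ± 0.17 (adjusted p = 0.565). Cyclins E1 and E2, which act at the start of S phase, were not called. Ccne1 lay between 0.349 and 1.87 CPM and Ccne2 between 9.55 and 15.0 CPM over all libraries. Foxm1 had from 1 to 14 counts in a library and was not tested.

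Among the 9 origin licensing and helicase members, 3 were higher and none lower in each irradiation comparison, or 2 of 8 without Cdc6. The share with Cdc6 was 33.3%, against 11.5% of all genes higher with PBS and 15.1% with LPS. Mcm2 to Mcm7 encode the subunits of the replicative helicase, and they did not move as a block. Mcm4 measured 13.0, 15.1, 15.2 and 15.1 CPM in sham PBS and 16.1, 16.6, 24.7 and 21.6 CPM in irradiated PBS. With LPS it measured 20.3, 23.3, 25.1 and 28.4 CPM in sham and 37.9, 33.0, 33.9 and 28.5 CPM in irradiated rats. Each step separated the libraries, and Mcm4 rose by 0.44 ± 0.15 with irradiation in PBS rats (edgeR adjusted p = 0.0456) and by 0.46 ± 0.15 in LPS rats (adjusted p = 0.0285). Both calls were small and lay near the threshold. The first was lost without any 1 of the sham PBS libraries, sham LPS library 2 or 3, irradiated PBS library 3 or 4, or irradiated LPS library 2 or 3 (adjusted p up to 0.173), and the second without sham LPS library 1 or 2 or irradiated LPS library 1 or 3 (up to 0.0926) and without both irradiated libraries numbered 1 (0.0584).

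Mcm2 was 27.3, 28.6, 20.8 and 31.1 CPM in sham PBS and 33.2, 23.1, 30.6 and 35.7 CPM in irradiated PBS. With LPS it was 23.4, 24.9, 38.1 and 29.0 CPM in sham and 22.8, 31.9, 31.4 and 30.6 CPM in irradiated rats. Groups overlapped, and its irradiation differences were 0.19 ± 0.18 (edgeR adjusted p = 0.501) and 0.02 ± 0.18 (adjusted p = 0.958). Mcm5 rose by 1.18 ± 0.27 with irradiation in PBS rats (adjusted p = 0.00417), from 6.26 ± 2.47 to 14.2 ± 3.14 CPM (mean ± SD, n = 4). Its difference in LPS rats was 0.43 ± 0.27 (adjusted p = 0.26). Mcm3 rose with irradiation in LPS rats, by 0.38 ± 0.12 (adjusted p = 0.0297), and that call was lost without sham LPS library 1, 3 or 4, without irradiated LPS library 1 or 2 (adjusted p up to 0.0816), and without both irradiated libraries numbered 1 (0.0673). Mcm6, the licensing factor Cdt1 and the helicase component Gins2 were not called in any comparison. Of these, Mcm6 differed by 0.30 ± 0.13, Cdt1 by 0.71 ± 0.40 and Gins2 by 0.27 ± 0.25 between irradiated and sham rats given PBS.

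Cdc6, which loads the helicase onto origins, was at the edge of detection. Its level was 0.730, 0.797, 0.0460 and 0.594 CPM in sham PBS and 1.31, 1.61, 3.70 and 2.99 CPM in irradiated PBS, that is 12, 16, 1 and 12 counts against 21, 29, 77 and 82 counts. No count was found in any sham LPS library, and irradiated LPS libraries stood at 1.23, 2.25, 0.654 and 1.34 CPM. All irradiated libraries but irradiated LPS library 3 were above every sham library. With PBS, Cdc6 rose by 2.15 ± 0.69 (edgeR adjusted p = 0.0359), and the call was lost without any 1 of the sham PBS libraries or irradiated PBS library 3 or 4 (adjusted p up to 0.102). A floor of 3 counts over the sham LPS group corresponds to 0.0427 CPM. Against it the pooled irradiated LPS libraries were at least 36.4-fold higher, and the sham LPS group was at least 12.2-fold lower than sham PBS. Cdc6 would not have passed the filter on the 8 sham libraries alone, the only tested member of which that was true. Because it was tested through the groups where it is high, its calls are given as a description.

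Replication clamp and nucleotide supply genes did not share a direction. Rrm1 and Rrm2 encode the large and the small subunit of ribonucleotide reductase, which makes deoxynucleotides. Rrm1 stood at 95.2, 93.0, 64.1 and 82.0 CPM in sham PBS and 55.2, 58.8, 51.1 and 63.8 CPM in irradiated PBS. In LPS rats Rrm1 stood at 70.8, 70.5, 73.5 and 92.1 CPM in sham and 50.1, 58.6, 48.9 and 52.4 CPM in irradiated rats. No irradiated library reached the lowest sham library of the same treatment, and Rrm1 fell by 0.54 ± 0.12 with PBS (edgeR adjusted p = 0.00384) and by 0.55 ± 0.12 with LPS (adjusted p = 0.00269). Rrm2 stood at 2.86, 4.44, 2.90 and 3.81 CPM in sham PBS and 5.10, 7.71, 9.19 and 11.1 CPM in irradiated PBS. Its level was 1.76, 3.09, 2.87 and 4.63 CPM in sham LPS and 9.43, 9.62, 11.7 and 8.89 CPM in irradiated LPS. Rrm2 thus moved the other way, with no overlap of sham and irradiated libraries, and rose by 1.24 ± 0.29 with PBS (2.36-fold, edgeR adjusted p = 0.00415) and by 1.68 ± 0.29 with LPS (3.20-fold, adjusted p = 0.000237).

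Pcna, the sliding clamp of DNA polymerases, did not differ past the threshold with irradiation (-0.10 ± 0.10 with PBS, edgeR adjusted p = 0.531, and -0.23 ± 0.10 with LPS, adjusted p = 0.109). Without sham LPS library 1 the second difference of Pcna was called (-0.30, adjusted p = 0.034). Tyms, the thymidylate synthase, was not called in any comparison. Tk1, the thymidine kinase of dividing cells, fell by 0.33 ± 0.11 with irradiation in LPS rats (adjusted p = 0.0299), a call that was lost without sham LPS library 3, without irradiated LPS library 1, 3 or 4 (adjusted p up to 0.116), and without both irradiated libraries numbered 1 (0.13).

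The 7 mitotic kinases and checkpoint genes split. With PBS, Aurkb was higher and Ttk and Aurka were lower after irradiation, and with LPS Bub1, Aurkb and Plk1 were higher and the same pair was lower. The share higher was 14.3% with PBS, near the 11.5% of all genes, and 42.9% with LPS, against 15.1%. The share lower was 28.6% in each comparison, against 9.91% of all genes with PBS and 12.6% with LPS. Ttk encodes the kinase Mps1, which starts the spindle checkpoint. Its level was 73.9, 76.6, 78.2 and 74.0 CPM in sham PBS and 26.6, 34.9, 37.1 and 37.4 CPM in irradiated PBS. With LPS it was 32.1, 32.2, 38.2 and 43.2 CPM in sham and 9.43, 17.7, 12.7 and 13.4 CPM in irradiated rats. Sham PBS libraries were the highest, irradiated LPS libraries the lowest, and the groups between them, sham LPS and irradiated PBS, overlapped. Ttk fell by 1.15 ± 0.16 with irradiation in PBS rats (edgeR adjusted p = 3.66e-05) and by 1.44 ± 0.16 in LPS rats (adjusted p = 2.48e-06). It also fell with LPS, by 1.05 ± 0.16 in sham rats (adjusted p = 6.99e-05) and by 1.34 ± 0.16 in irradiated rats (adjusted p = 4.7e-06), and the difference between these LPS responses was -0.29 ± 0.22 (adjusted p = 0.69). Ttk and Mcm4 were the members called in all 4 pairwise comparisons, Ttk lower and Mcm4 higher in each.

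Aurka, the kinase of centrosomes and the spindle, measured 152, 158, 166 and 148 CPM in sham PBS and 66.2, 93.6, 95.5 and 105 CPM in irradiated PBS. With LPS it measured 191, 166, 153 and 216 CPM in sham and 79.0, 87.5, 99.4 and 88.8 CPM in irradiated rats. All irradiated libraries were below all sham libraries, and Aurka fell by 0.79 ± 0.13 with PBS (edgeR adjusted p = 0.000184) and by 1.03 ± 0.13 with LPS (adjusted p = 7.28e-06). In the RefSeq annotation the Aurka gene overlaps Fam210b, which fell by 1.02 ± 0.12 with PBS (adjusted p = 9.7e-06) and by 1.36 ± 0.12 with LPS (adjusted p = 2.8e-07). The counted strand is not stated, so reads of the stretch that Aurka and Fam210b share may not be told apart. How such reads were counted is not known. Of the members 9 overlap a protein-coding gene in that annotation, among them Kif11 (Ide), Nusap1 (Ndufaf1), Kif20a (Cdc23), Rrm2 (Cys1) and Plk1 (Ern2). Ide did not pass the test for irradiation (-0.18 ± 0.16 with PBS, adjusted p = 0.474, and -0.01 ± 0.16 with LPS, adjusted p = 0.985). With irradiation Ndufaf1 differed by 0.16 ± 0.40 in PBS rats (adjusted p = 0.833) and rose by 1.42 ± 0.41 in LPS rats (adjusted p = 0.0136).

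Aurkb, the chromosome passenger kinase, was at 2.25, 3.34, 1.98 and 3.07 CPM in sham PBS and 4.73, 8.10, 3.08 and 7.22 CPM in irradiated PBS. It was at 1.15, 1.77, 1.32 and 1.05 CPM in sham LPS and 3.84, 6.05, 3.18 and 6.47 CPM in irradiated LPS. The PBS groups overlapped and the LPS groups did not. Aurkb rose by 1.12 ± 0.34 with irradiation in PBS rats (edgeR adjusted p = 0.0251) and by 1.89 ± 0.36 in LPS rats (adjusted p = 0.000557), and the first call was lost without sham PBS library 1 or 3 or irradiated PBS library 2 or 4 (adjusted p up to 0.0923). Bub1, a checkpoint kinase at kinetochores, differed by 1.37 ± 0.49 with irradiation in PBS rats (adjusted p = 0.0523) and rose by 2.64 ± 0.52 in LPS rats (adjusted p = 0.000878). The Bub1 difference with PBS was called with DESeq2 (adjusted p = 0.0218) and limma voom (0.0129), among other settings. Plk1, the polo-like kinase of mitotic entry, differed by 0.97 ± 0.43 with irradiation in PBS rats (adjusted p = 0.125) and rose by 1.36 ± 0.44 in LPS rats (adjusted p = 0.0283). The Plk1 call was lost without sham LPS library 1, 3 or 4 or irradiated LPS library 2 or 3 (adjusted p up to 0.0829). Bub1b and Melk were not called, at 1.02 ± 0.51 and 1.41 ± 0.51 with PBS, though Melk was called with DESeq2 (adjusted p = 0.0288) and limma voom (0.0313).

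Both partners of the anaphase-promoting complex, the ubiquitin ligase that ends mitosis, were higher after irradiation with LPS, and Ube2c also with PBS. Ube2c, its ubiquitin-conjugating enzyme, was 1.16, 1.84, 0.920 and 1.04 CPM in sham PBS and 4.11, 3.05, 4.76 and 2.81 CPM in irradiated PBS. It was 0.546, 0.939, 2.29 and 0.661 CPM in sham LPS and 3.28, 3.93, 4.05 and 4.40 CPM in irradiated LPS. Each irradiated library exceeded each sham library, and Ube2c rose by 1.57 ± 0.41 with PBS (edgeR adjusted p = 0.01) and by 1.81 ± 0.41 with LPS (adjusted p = 0.00283). Cdc20, the activator of the complex, was 6.93, 9.22, 8.42 and 11.6 CPM in sham PBS and 11.1, 11.7, 16.9 and 13.1 CPM in irradiated PBS. Under LPS, Cdc20 was 3.40, 8.29, 6.48 and 3.97 CPM in sham and 9.79, 11.2, 12.4 and 12.2 CPM in irradiated rats. Only the LPS groups were apart. With irradiation Cdc20 rose by 1.04 ± 0.25 in LPS rats (edgeR adjusted p = 0.0044), against a difference of 0.55 ± 0.25 in PBS rats (adjusted p = 0.133).

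Of the 10 kinetochore, spindle and cytokinesis genes 7 were higher after irradiation with PBS and 6 with LPS, and none was lower. The shares higher were 70% and 60%, against 11.5% and 15.1% of all genes. Their median log2 fold change was 1.29 with PBS and 1.20 with LPS, and all 10 had positive values in both. Kif11, the motor that separates spindle poles, measured 1.52, 2.34, 3.22 and 1.78 CPM in sham PBS and 7.09, 7.49, 4.28 and 8.53 CPM in irradiated PBS. With LPS it measured 1.70, 2.49, 1.03 and 2.15 CPM in sham and 4.56, 7.61, 6.04 and 6.47 CPM in irradiated rats. No sham library reached an irradiated one, and Kif11 rose by 1.62 ± 0.32 with PBS (edgeR adjusted p = 0.0013) and by 1.74 ± 0.33 with LPS (adjusted p = 0.000516). Kif23, a motor of the cytokinesis midzone, measured 0.547, 0.847, 1.70 and 0.396 CPM in sham PBS and 5.35, 4.22, 5.10 and 1.86 CPM in irradiated PBS. Kif23 measured 0.303, 1.16, 0.229 and 0.882 CPM in sham LPS and 2.51, 4.70, 2.93 and 4.35 CPM in irradiated LPS. All 8 irradiated libraries were above all 8 sham libraries, and Kif23 rose by 2.22 ± 0.54 with PBS (4.66-fold, edgeR adjusted p = 0.00572) and by 2.48 ± 0.55 with LPS (5.58-fold, adjusted p = 0.00216).

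Prc1, which bundles microtubules of the midzone, was 5.35, 5.13, 6.30 and 3.42 CPM in sham PBS and 7.15, 10.4, 14.9 and 12.5 CPM in irradiated PBS. It was 4.92, 8.18, 6.53 and 4.57 CPM in sham LPS and 8.30, 8.99, 12.6 and 11.6 CPM in irradiated LPS. Libraries of irradiated rats were above those of sham rats given the same injection, and Prc1 rose by 1.16 ± 0.26 with PBS (edgeR adjusted p = 0.00375) and by 0.78 ± 0.26 with LPS (adjusted p = 0.0319), a call lost without sham LPS library 1 or 4 or irradiated LPS library 3 or 4 (adjusted p up to 0.0945). Nusap1, a spindle protein, rose by 1.43 ± 0.42 with PBS (adjusted p = 0.0207) and by 1.44 ± 0.43 with LPS (adjusted p = 0.0165). The Nusap1 calls were lost without sham PBS library 1 or 4 or irradiated PBS library 2 (adjusted p up to 0.0665), and without sham LPS library 1 or irradiated LPS library 4 (up to 0.0589). The kinetochore proteins Cenpe and Cenpf rose with PBS, by 2.36 ± 0.58 and 2.52 ± 0.68 (adjusted p = 0.00643 and 0.0123). With LPS they differed by 1.02 ± 0.55 and 1.69 ± 0.65 (adjusted p = 0.184 and 0.0625). Ect2, which acts in cytokinesis, rose by 1.14 ± 0.39 with PBS (adjusted p = 0.0426), and this call was lost without any 1 of the sham PBS libraries, sham LPS library 2, irradiated PBS library 2, 3 or 4, or irradiated LPS library 2 (adjusted p up to 0.122), and without both irradiated libraries numbered 1 (0.0507).

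Tpx2, a spindle assembly factor, and Kif20a, a cytokinesis motor, were called higher with irradiation in LPS rats, at 1.38 ± 0.42 (edgeR adjusted p = 0.0186) and 0.56 ± 0.18 (adjusted p = 0.0294). The Tpx2 call was lost without irradiated LPS library 2 (adjusted p = 0.0518). That of Kif20a was lost without sham LPS library 4 or irradiated LPS library 1, 2 or 3 (adjusted p up to 0.0871) and without both irradiated libraries numbered 1 (0.0646). Birc5, or survivin, was not called, at 0.47 ± 0.21 with PBS and 0.57 ± 0.21 with LPS.

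**Figure D3:**
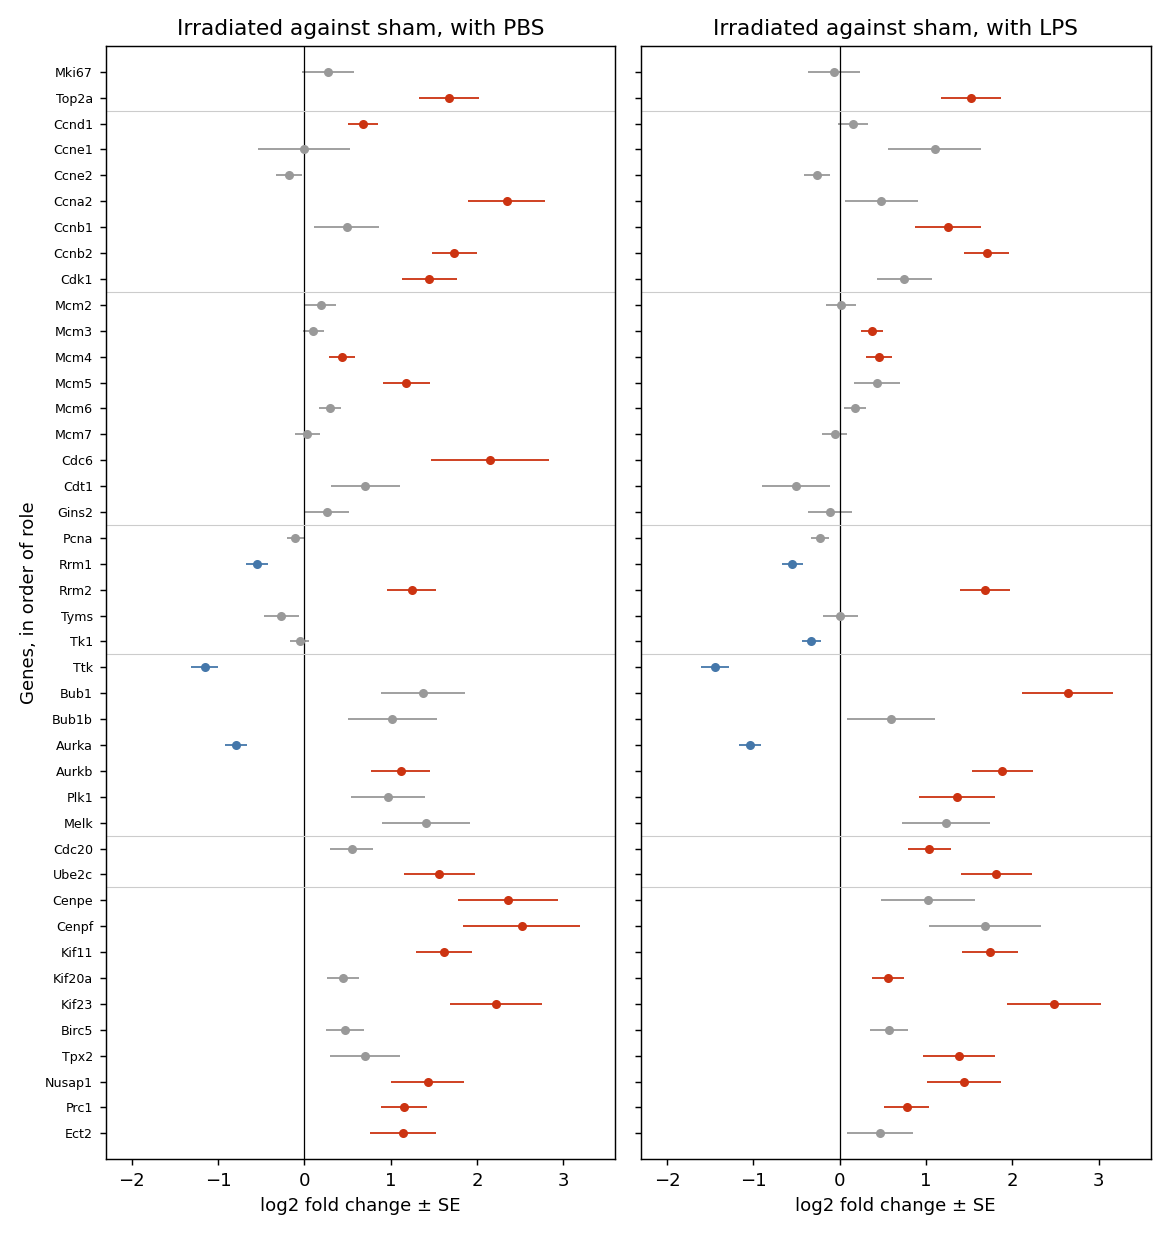
Points give the log2 fold change ± SE of irradiated against sham rats for each tested member in order of role, with PBS on the left and LPS on the right, red where called higher, blue where called lower and grey where not called at an edgeR adjusted p of 0.05. Cdc6 is left out on the right because sham LPS had 0 counts. The 10 kinetochore, spindle and cytokinesis members at the bottom are right of 0 on both sides, and Ttk, Aurka and Rrm1 are left of 0.

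Fewer members were called for LPS than for irradiation. In sham rats 3 of 42 were higher and 7 lower with LPS than with PBS, where 15.2% of all genes were higher and 14.5% lower. Without Cdc6, which passed the filter through the irradiated libraries, 3 of 41 were higher and 6 lower. In irradiated rats 2 were higher and 3 lower, where 17% of all genes were higher and 14.5% lower, and with library totals in place of TMM factors 2 were higher and 5 lower. The shares of members higher, 7.14% and 4.76%, were below those of all genes. The shares lower were 16.7% in sham rats, near that of all genes, and 7.14% in irradiated rats, below it. These comparisons share no library. Mcm4 and Pcna were higher in both (66.7% and 100% of the 2 lists, against 72.4% and 64.7% over all genes). Mcm7 and Ttk were lower in both (28.6% and 66.7%, against 62.4% of each list over all genes). With only the 2 groups compared in the fit and its filter, which then left out Cdc6, 2 of 41 members were lower in sham rats instead of 7 of 42. Leaving out single libraries gave between 3 and 7. The lowest count, 3, came without sham PBS library 2 or 4 or sham LPS library 1 or 4, and 4 were lower without sham LPS library 3 and without both irradiated libraries numbered 1.

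Pcna was 75.0, 79.4, 82.8 and 80.2 CPM in sham PBS and 94.6, 107, 124 and 126 CPM in sham LPS. In irradiated rats it was 63.2, 80.7, 73.9 and 77.5 CPM with PBS and 85.6, 99.7, 105 and 95.6 CPM with LPS. Within each arm every LPS library was above every PBS library, and Pcna rose by 0.51 ± 0.10 in sham rats (edgeR adjusted p = 0.000984) and by 0.39 ± 0.10 in irradiated rats (adjusted p = 0.00714). Mcm4, whose values are given above, rose by 0.73 ± 0.15 in sham rats (1.66-fold, adjusted p = 0.00126) and by 0.75 ± 0.15 in irradiated rats (1.68-fold, adjusted p = 0.000804). Mcm7, a subunit of the same helicase, went the other way. Its levels were 26.8, 26.8, 32.5 and 30.3 CPM in sham PBS and 23.9, 15.4, 19.5 and 19.3 CPM in sham LPS. They were 29.5, 27.6, 36.0 and 26.1 CPM in irradiated PBS and 17.5, 21.6, 19.6 and 16.4 CPM in irradiated LPS. LPS libraries were below PBS libraries in each arm, and Mcm7 fell by 0.58 ± 0.15 in sham rats (edgeR adjusted p = 0.00568) and by 0.67 ± 0.14 in irradiated rats (adjusted p = 0.00166). The Mcm7 gene hosts the miRNA genes Mir25, Mir93 and Mir106b, which these counts do not measure apart.

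Ccnd1 rose with LPS in sham rats by 0.65 ± 0.17 (1.57-fold, edgeR adjusted p = 0.00838), although sham LPS library 1, at 187 CPM, lay within the range of sham PBS. In irradiated rats, where Ccnd1 was already higher with PBS, the LPS difference was 0.12 ± 0.17 (adjusted p = 0.642). Members lower with LPS in sham rats included 3 of 7 mitotic kinases and checkpoint genes (42.9%, against 14.5% of all genes), Ttk among them. They also included 1 of 2 partners of the anaphase-promoting complex (50%) and 1 of 10 kinetochore, spindle and cytokinesis genes (10%). Outside the members, 4 of 51 tested mitosis genes were lower with LPS in sham rats (7.84%), below the 14.5% of all genes. Bub1 fell by 1.47 ± 0.52 (adjusted p = 0.0395), Aurkb by 1.01 ± 0.36 (adjusted p = 0.0404), Cdc20 by 0.71 ± 0.25 (adjusted p = 0.0424) and Kif20a by 0.52 ± 0.19 (adjusted p = 0.041). All 4 calls depended on single libraries. Bub1 was not called without sham PBS library 2, 3 or 4 or sham LPS library 1, 3 or 4 (adjusted p up to 0.175), nor without both irradiated libraries numbered 1 (0.0542). Aurkb was not called without sham PBS library 2 or 4 or sham LPS library 1, 3 or 4 (up to 0.105), nor without both irradiated libraries numbered 1 (0.0501). Cdc20 was not called without sham PBS library 2, 3 or 4, sham LPS library 1 or 4, irradiated PBS library 2 or 4 or irradiated LPS library 4 (up to 0.135). Kif20a was not called without sham PBS library 1, 2 or 4 or any sham LPS library (up to 0.149), nor without both irradiated libraries numbered 1 (0.0581). In irradiated rats the LPS differences of these 4 genes were -0.21 ± 0.47, -0.24 ± 0.33, -0.22 ± 0.25 and -0.41 ± 0.18, and none was called. Tk1 fell with LPS in irradiated rats by 0.30 ± 0.11 (adjusted p = 0.0406), a call lost without sham PBS library 1 or 4, irradiated PBS library 1, 2 or 4 or irradiated LPS library 1, 3 or 4 (up to 0.115), and without both irradiated libraries numbered 1 (0.146).

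**Figure D4:**
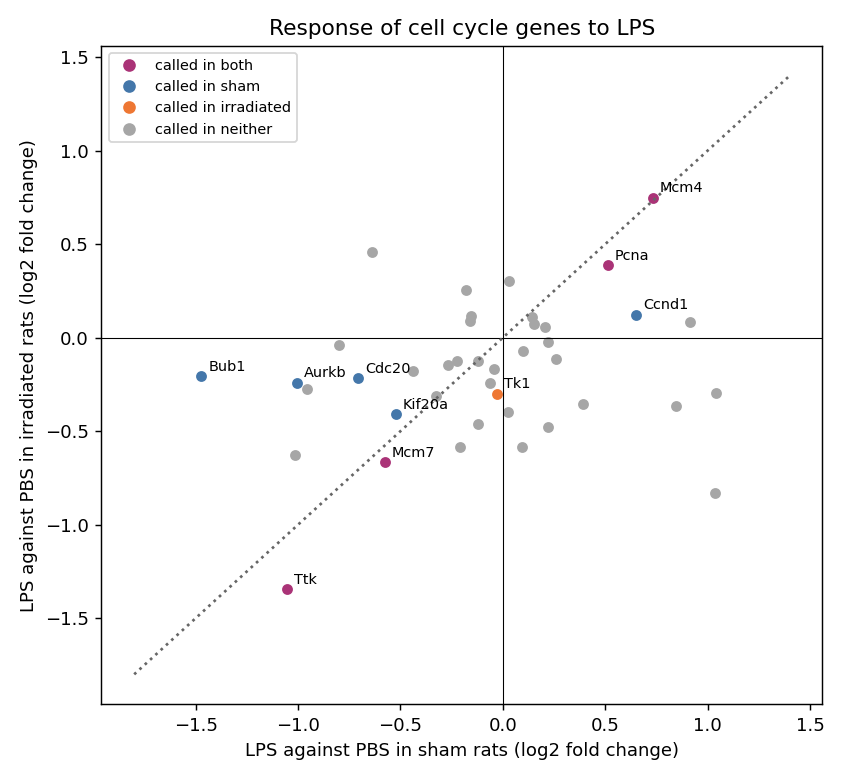
Each point is a member, with the log2 fold change of LPS against PBS in sham rats on the horizontal axis and in irradiated rats on the vertical axis, and the dotted line marks equal responses. Cdc6 is left out because sham LPS had 0 counts. Mcm4, Pcna, Mcm7 and Ttk are called in both and lie near the line, and Bub1, Aurkb, Cdc20 and Kif20a are called in sham rats only.

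Whether irradiation altered the LPS response was tested directly as the difference between the 2 LPS responses. No member was called in this test with edgeR, where 0.61% of all genes were called higher and 0.647% lower. Of the 42 members 4 had an unadjusted p under 0.05, with limma voom none was called, and DESeq2 called Cdc6 alone (adjusted p = 0.0231). The 4 were Ccnd1 (-0.53 ± 0.24, adjusted p = 0.398), Ccna2 (-1.87 ± 0.61, adjusted p = 0.179), Cdt1 (-1.21 ± 0.56, adjusted p = 0.398) and Cdc6 (adjusted p = 0.0842). Cdc6 was also called with edgeR without sham PBS library 3 (adjusted p = 0.0277). A member called for LPS in one arm and not in the other was therefore not shown to respond differently.

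Other genes of the cycle were taken from lists written from general knowledge. Of 7 Cdk inhibitors 6 were tested, and after irradiation 4 were higher with PBS and 5 with LPS, with none lower. The shares higher were 66.7% and 83.3%, against 11.5% and 15.1% of all genes. Cdkn1a, which encodes p21, stood at 3.79 ± 0.965 CPM in sham PBS, 19.4 ± 4.27 CPM in sham LPS, 44.6 ± 16.0 CPM in irradiated PBS and 72.8 ± 13.5 CPM in irradiated LPS (mean ± SD, n = 4). It rose with LPS by 2.37 ± 0.27 in sham rats and by 0.71 ± 0.24 in irradiated rats, and the difference of these responses was -1.66 ± 0.35 (edgeR adjusted p = 0.0267). That difference was not called with limma voom (adjusted p = 0.191), nor without sham PBS library 2, 3 or 4, sham LPS library 2, irradiated PBS library 4 or irradiated LPS library 2 or 4 (up to 0.0713). The LPS rise of Cdkn1a in irradiated rats was not called without irradiated PBS library 1 or 2 or irradiated LPS library 1 or 4 (up to 0.0915), nor without both irradiated libraries numbered 1 (0.145), with library totals alone (0.0593) or with only the groups compared (0.0565). Cdkn2d, the INK4 inhibitor p19, rose by 0.57 ± 0.15 with irradiation in PBS rats (adjusted p = 0.00849) and with LPS by 1.30 ± 0.15 in sham and 1.27 ± 0.14 in irradiated rats.

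Of 5 G1 cyclins and kinases, 2 were higher and 1 lower after irradiation with PBS, and 3 were higher with LPS in sham rats. The shares were 40%, 20% and 60%, against 11.5%, 9.91% and 15.2% of all genes. Ccnd2, cyclin D2, rose with LPS by 1.64 ± 0.10 in sham rats and by 0.89 ± 0.10 in irradiated rats, a difference of -0.75 ± 0.14 (edgeR adjusted p = 0.00798). Cdk6, a partner of D-type cyclins, rose with LPS in sham rats by 1.33 ± 0.31 (adjusted p = 0.00352) and with irradiation by 1.00 ± 0.31 (adjusted p = 0.0286). The irradiation call of Cdk6 was lost without sham PBS library 1, 2 or 4 or irradiated PBS library 1 or 3 (adjusted p up to 0.0915), without both irradiated libraries numbered 1 (0.0984) and with only the groups compared (0.0683). Among 8 tested pocket protein and MuvB genes, some of which help hold cell cycle promoters silent in resting cells, none was called for irradiation with PBS. With LPS, 2 were lower in each arm (25%, against 14.5% of all genes). These were Lin9 (-1.09 ± 0.25 in sham and -1.25 ± 0.26 in irradiated rats) and Rbl2 (-1.02 ± 0.22 and -0.94 ± 0.22). Among 7 other E2F factors, 3 were higher with LPS in sham rats (42.9%, against 15.2% of all genes). They were led by the repressor E2f7 (3.52 ± 0.61, adjusted p = 0.000267) and by E2f3 (2.20 ± 0.52, adjusted p = 0.0037).

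Of 11 anti-proliferative and quiescence genes, 6 were higher and 2 lower with LPS in sham rats, and 5 were higher and 1 lower after irradiation with PBS. The shares higher were 54.5% and 45.5%, above those of all genes (15.2% and 11.5%), and the shares lower, 18.2% and 9.09%, were near those of all genes (14.5% and 9.91%). Btg2, a p53 target that restrains G1, rose with LPS by 3.08 ± 0.12 in sham rats and by 1.69 ± 0.11 in irradiated rats, a difference of -1.39 ± 0.16 (edgeR adjusted p = 0.000202). Its mean levels were 33.6 ± 4.07 and 284 ± 23.2 CPM in sham rats with PBS and LPS, and 45.2 ± 3.81 and 146 ± 21.7 CPM in irradiated rats (n = 4). Gadd45g, a stress gene, rose with LPS by 2.85 ± 0.22 and 2.88 ± 0.22 in the same arms. Among 10 tested genes of growth factor and survival signalling, the receptor subunit Csf2ra rose with irradiation (1.43 ± 0.10 with PBS, adjusted p = 1.38e-08), and the shared receptor subunit Csf2rb rose with LPS (3.08 ± 0.19 in sham rats, adjusted p = 4.17e-09).

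Further mitosis and replication genes, none of them a member, were counted in the same comparisons. Of 51 tested mitosis genes 10 were higher and none lower after irradiation with PBS, and 19 were higher and 1 lower with LPS, with a median log2 fold change of 0.67 and 0.80. The shares higher were 19.6% and 37.3%, against 11.5% and 15.1% of all genes. Stmn1, a microtubule regulator, rose by 1.59 ± 0.24 with PBS and 1.60 ± 0.24 with LPS, and Tacc3, a spindle protein, by 0.42 ± 0.10 and 0.67 ± 0.10 (edgeR adjusted p = 0.00622 and 6.59e-05). Of 35 replication genes 3 were higher and 1 lower with PBS, and 6 were higher and 3 lower with LPS, with a median of 0.13 and 0.00. The shares higher, 8.57% and 17.1%, were near those of all genes. Timeless, of the replication fork protection complex, rose by 1.22 ± 0.18 with PBS and 1.57 ± 0.19 with LPS, and Uhrf1, which maintains DNA methylation after replication, by 1.76 ± 0.40 and 2.42 ± 0.42. Both fell with LPS in sham rats (-0.83 ± 0.19 and -1.26 ± 0.42). The LPS call of Uhrf1 was lost without sham PBS library 1 or sham LPS library 1 or 4 (adjusted p up to 0.131), with limma voom (0.154) and with only the groups compared (0.0809).

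Members varied little together from library to library once group means were removed. Over the 16 libraries the median Pearson correlation of the 861 pairs of tested members was 0.07, and 510 pairs were above 0. This is a description of libraries that share sequencing depth and sort, and many members are at few counts. Among members, Bub1 (r = 0.59) and Birc5 (r = 0.55) followed Mki67 most closely on this measure, at ranks 236 and 379 among the genes tested. Of genes that are no member, Klhl13 (r = 0.91), Bgn (r = 0.82), Pgap1 (r = 0.81), Eps15l1 (r = 0.80), Neurl4 (r = 0.80), Bfar (r = 0.79), P2rx3 (r = 0.79) and Gpr160 (r = 0.78) were among the 10 most like Mki67, with 2 IDs that have no symbol. Top2a stood at r = 0.51 with Mki67. Of the 42 tested members 31 were called in at least 1 pairwise comparison, 29 of them in an irradiation comparison and 11 in an LPS comparison, and 11 were called in none. These are 73.8%, 69% and 26.2% of the members, against 54.4%, 33.5% and 40.9% of all genes called in the same sets of comparisons. Cdc6, which was tested through the irradiated libraries, is among the called members in each of these sets.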

How the data were processed

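The authors deposited unnormalised counts for every sample by Ensembl ID, and a symbol table that held equal values (0 of 349472 cells differed). Per the submitters' processing notes, the build was mRatBN7.2 and the tools included HTSeq 2.0.2, fastp 0.23.2 and FastQC 0.11.9, with the aligner, annotation and counted strand not given in the sources used here. Testing used edgeR 4.0.16 under R 4.3.3, with filterByExpr with a minimum count of 10, TMM factors, and a quasi-likelihood fit with robust moderation of all 16 libraries, in which each group had its own mean. Adjusted p-values are Benjamini-Hochberg values over all 13608 genes tested, called under 0.05. The SE is the log2 fold change divided by the root of the F statistic, and levels are CPM scaled with TMM factors. Levels of different genes were not compared, since they are not corrected for length.

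The members and all gene lists were chosen with earlier results of these data known. Values per library are given for up to 3 members of each role with the smallest p in any comparison and always for Mki67, Top2a, Ccnd1, Ttk, Ccnb2, Pcna and Mcm2. Other lists are given by counts, with values for up to 2 called genes each and Cdkn1a. Fam210b, Ide and Ndufaf1 were named after their values were seen. Alternatives were other scaling and filters, DESeq2 1.42.0, limma 3.58.1 with voom, a replicate block, only the groups compared, no robust moderation, counts per symbol, and leaving out libraries. The code was tested on simulated data. Replicate numbers were treated as names and not as pairs. RefSeq tables of build GRCr8 gave promoters and overlapping genes (43 of 43 members matched), by symbol only.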

Additional observations from a re-analysis of the deposited data

Results flagged for a closer look

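In groups of 4 libraries, a library was taken to stand apart where its gap to the nearest other library was a larger share of the group's range than Dixon's 95% critical value for 4 samples. Chance alone gives about 1 in 20 groups, and the 42 tested members were not all examined, only the 21 with values per library, in 4 groups each (84 groups). In these, 5 values stood apart. Top2a was 20.6 CPM in irradiated LPS library 2, with the other libraries between 16.3 and 16.5 CPM. Ccna2 was 0.668 CPM in sham LPS library 1, against 2.04 to 2.21 CPM. Mcm2 was 22.8 CPM in irradiated LPS library 1, against 30.6 to 31.9 CPM. Mcm4 was 13.0 CPM in sham PBS library 1, against 15.1 to 15.2 CPM. Rrm1 was 92.1 CPM in sham LPS library 4, against 70.5 to 73.5 CPM.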

How the results depend on the processing

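No fold change of a member, of a gene named from the other lists or of Fam210b changed sign while called, in 7905 recomputed values over 27 settings. Those of Ide and Ndufaf1 were not recomputed. Of these 163 lost a call, 88 gained one, and 214 uncalled values had another sign. The number of members lower with LPS in sham rats was 7, and it was 4 without a filter on low counts, 2 with only the groups compared and 4 without both irradiated libraries numbered 1. Members lower with LPS in irradiated rats numbered 3, and 5 with library totals alone and with limma voom. For the difference of LPS responses, DESeq2 called 1 member higher against 0. Library totals alone moved the median of all genes to 0.15 for irradiation with PBS, where 23 members were then higher and 3 lower (all genes: 2331 higher and 725 lower, against 1566 and 1348), and to -0.14 for LPS in irradiated rats. Besides the libraries named in the report, single or paired, calls of members ended as follows. For irradiation with PBS, Mcm4 was lost with voom, no filter, the replicate block and only the groups compared, and Ect2 with no filter. For irradiation with LPS, Tk1 was lost with library totals, voom, no filter and only the groups compared, Kif20a with the last 3 of these, Mcm3 and Prc1 with voom, and Plk1 and Tpx2 with only the groups compared. For LPS in sham rats, only the groups compared ended the calls of Bub1, Aurkb, Cdc20 and Kif20a, voom those of Bub1, Aurkb and Kif20a, and no filter those of Aurkb, Cdc20 and Kif20a. For LPS in irradiated rats, Tk1 was lost with no filter and only the groups compared. For these shifts the cause was not tested.

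Leaving out 1 library at a time gave 3 to 4 members higher and 3 to 7 lower for LPS in sham rats, 2 higher and 2 to 3 lower for LPS in irradiated rats, 14 to 20 higher and 3 lower for irradiation with PBS, 13 to 19 higher and 3 to 5 lower for irradiation with LPS, and 0 to 1 higher and 0 lower for the difference of responses. In every one of these 16 fits, 16 of 21 calls for irradiation with PBS, 13 of 22 with LPS, 6 of 10 for LPS in sham rats and 4 of 5 in irradiated rats were kept.

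The same replicate number correlated over 0.1 in some pairs of groups only (from -0.06 to 0.40), so the numbers were not taken as pairing. With a replicate block, members called higher and lower were 4 and 7 for LPS in sham rats, 2 and 3 in irradiated rats, 17 and 3 for irradiation with PBS, 20 and 5 with LPS, and 0 and 0 for the difference. In 12 of 16 comparisons a library correlated best with its own number, a hint from the data and not from the design. Under the block Bub1 for LPS in sham rats (adjusted p = 0.0759) and Mcm4 for irradiation with PBS (0.0511) were not called, and Pcna (0.0442), Cenpf (0.029) and Birc5 (0.0438) were called for irradiation with LPS, as were Cdt1 (0.0245) and Plk1 (0.0319) for LPS in sham rats.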
